A study of Mus musculus with 3 samples.

Results

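The muscle satellite cells recovered with the flexor digitorum longus (FDL) tendon, a flexor of the mouse hind paw, were taken from 3 droplet single-cell RNA-sequencing libraries by counts of unique molecular identifiers (UMIs, each standing for 1 captured RNA molecule). Barcodes with 1000 to 5000 detected genes and at most 10% of UMIs from mitochondrial genes were kept. A kept barcode was a member when Myod1, Myf5, Pax7 and Cdh15 together had at least 3 UMIs, the muscle fibre genes Acta1 and Ckm fewer than 50, the macrophage genes C1qa, C1qb and C1qc at most 3, and the tendon genes Tnmd, Fmod, Kera and Cilp2 fewer than 10. The rule returned 174 of 19709 kept cells. Of these, 44 came from the 6 M WT library (WT from here on), 58 from the 6 M DTR library (DTR) and 72 from the 21 M B6 library (B6). The members were thus selected on the measured counts of these genes in the same cells, and those counts are given as a description.

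The WT mice were Scx-Cre-; DTR F/+ and the DTR mice were their Scx-Cre+; DTR F/+ littermates. Both received 5 daily injections of diphtheria toxin (DT) into the hind paw at 3 months of age and were harvested at 6 months, so the WT mice carried the same receptor allele and had the same toxin. In the DTR mice the Scx promoter drove a Cre that is not inducible, which removed a stop cassette in front of the diphtheria toxin receptor (DTR) at the Rosa locus. Any cell whose lineage had expressed Scx, which includes some cells outside tendon, could then be killed by the toxin. The B6 mice were untreated C57BL/6J animals of 21 months. Each library pooled 16 tendons, from male and female mice. Tissue was digested for 2 h in WT and for 1.5 h in the other libraries, so digestion time and group cannot be told apart in comparisons with WT. The strain label is C57BL/6J for all groups, and age, toxin and the Rosa allele cannot be told apart in comparisons with B6. Between B6 and DTR, the Scx-Cre transgene and the toxin depletion cannot be told apart from these either. There was 1 library per group, so no test between groups was possible, and the intervals given below are exact 95% intervals that cover counting error only.

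Satellite cells are the resident stem cells of skeletal muscle and lie between the fibre membrane and the basal lamina. Pax7, a paired-box transcription factor, marks them in quiescence, when Notch signalling holds them out of the cell cycle. Myf5 and Myod1, basic helix-loop-helix transcription factors, commit cells to the myogenic lineage, and Myod1 protein accumulates on activation. Myog, a factor of the same family, accompanies exit from the cycle and differentiation, after which the fusion proteins Mymk and Mymx join myoblasts into fibres. Cdh15 is M-cadherin, which holds the cell to its fibre, and Asb5 is a gene of the ankyrin-repeat SOCS-box family found in satellite cells. Dissociation of muscle is itself known to switch on immediate early and heat shock genes in these cells.

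In the GENCODE annotation of mouse build GRCm38, Pax7 (ENSMUSG00000028736) lies at chr4:139737062-139833528 on the minus strand and Myf5 (ENSMUSG00000000435) at chr10:107482908-107486134 on the minus strand. Myod1 (ENSMUSG00000009471) lies at chr7:46376474-46379099, Myog (ENSMUSG00000026459) at chr1:134289989-134292548, Cdh15 (ENSMUSG00000031962) at chr8:122847966-122867397 and Asb5 (ENSMUSG00000031519) at chr8:54529580-54587842, all on the plus strand. The heat shock genes Hspa1a (ENSMUSG00000091971) and Hspa1b (ENSMUSG00000090877) are neighbours on the minus strand, at chr17:34969190-34972156 and chr17:34956436-34959238.

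The promoters of 3 genes on which the comparisons turn are shown as the 150 bases before the start site in RefSeq on GRCm38.p6, read 5′ to 3′ on the strand of the gene. In Myog, at chr1:134289854-134290003 on the plus strand, capitals mark the E-box letters CANNTG, the core bound by Myod1 and Myog, which occurred 138 and 12 bases before the RefSeq start. The GENCODE start of Myog, 134289989, lies within this window, so the E-box nearer the RefSeq start is inside the gene by that annotation.
Myog: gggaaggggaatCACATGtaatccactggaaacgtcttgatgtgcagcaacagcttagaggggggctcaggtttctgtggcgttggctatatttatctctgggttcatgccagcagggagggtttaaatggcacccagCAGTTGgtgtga
In Hspa1a, at chr17:34972157-34972306, and Hspa1b, at chr17:34959239-34959388, both on the minus strand, capitals mark GAANNTTC, an inverted repeat of the heat shock factor unit, which occurred 104 bases before the start of each.
Hspa1a: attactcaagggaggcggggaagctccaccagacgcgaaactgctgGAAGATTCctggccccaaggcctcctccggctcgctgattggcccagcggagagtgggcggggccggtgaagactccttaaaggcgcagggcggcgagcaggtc
Hspa1b: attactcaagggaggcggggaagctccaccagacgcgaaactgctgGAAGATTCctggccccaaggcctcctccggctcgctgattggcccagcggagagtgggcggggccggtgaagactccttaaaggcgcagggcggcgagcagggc
The Hspa1a and Hspa1b windows were identical at 149 of 150 bases. Each motif reads the same on both strands. CANNTG was present in 47.7% of 32851 RefSeq promoters of this length, and GAANNTTC or its other form TTCNNGAA in 7.73%, so a match is a description of the letters and no more. The transcribed parts of Hspa1a and Hspa1b are also nearly identical, so reads may be split between them and their separate levels are uncertain.

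Gene levels are given as CPM, UMIs of the gene scaled to a total of 1000000, summed over the members of a library, which held 500615 UMIs in WT, 503393 in DTR and 695982 in B6. The members held RNA of satellite cell genes that the rule did not use. Asb5 was among the markers listed for these cells with earlier results of these data known, so its level is a description. Asb5 was at 250 CPM in WT, 226 CPM in DTR and 333 CPM in B6, against 1.73, 2.53 and 3.83 CPM in all other kept cells. It was detected in 31 of 44, 36 of 58 and 50 of 72 members. Fgfr4, a fibroblast growth factor receptor of satellite cells, was at 59.9, 47.7 and 57.5 CPM and below 1 CPM in the other cells of every library. Megf10, an engulfment receptor of satellite cells, was at 65.9, 67.5 and 56.0 CPM, and the intermediate filament gene Des at 455, 538 and 474 CPM. Scx, which defines the tendon lineage, had 7, 6 and 10 UMIs over all members of the 3 libraries.

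The libraries held 15536 barcodes with 148149903 UMIs (WT), 16099 with 123918145 (DTR) and 12273 with 92707026 (B6), of which 8357, 6554 and 4798 barcodes were kept. Any pair of libraries shared 61 to 76 barcode sequences, and no cell was a member in more than 1 library. The depth per member was lower than that of the other kept cells and ranged widely. In WT the lowest, median and highest member had 4198, 10439.5 and 25049 UMIs. In DTR these were 2978, 8493 and 25525 UMIs, and in B6 they were 4414, 8526 and 26209 UMIs. The other kept cells had medians of 13024, 12374 and 13008 UMIs. The median mitochondrial share of members was 3.52% in WT, 3.48% in DTR and 7.27% in B6, against 2.82%, 2.99% and 5.06% in the other cells. The B6 library thus had the higher mitochondrial share among members and other cells alike.

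The threshold of 3 UMIs had cells close on both sides. Exactly 2 UMIs of the rule genes, just outside, were found in 9, 9 and 10 cells of WT, DTR and B6, with Asb5 detected in 4, 2 and 5 of them. Exactly 3 UMIs, just inside, were found in 3, 8 and 7 cells, with Asb5 in 1, 6 and 3. The median member had 9.5, 10.5 and 10 UMIs of the rule genes. Members held 87.0%, 93.1% and 92.9% of all UMIs of the 4 rule genes in kept cells, a share that the rule itself favours. The limits on other cell types removed 4 cells in WT and 1 in B6 for tendon genes and 1 in DTR and 2 in B6 for C1q genes, and the fibre limit removed none.

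Markers of other cell types were present in the members. The rule itself limits Tnmd, Fmod, Kera and Cilp2 among the tenocyte markers, the C1q genes among the macrophage markers and Acta1 and Ckm among the fibre genes, so nothing is read from the distance of these sums to those of other cells. The 12 tenocyte markers summed to 551, 429 and 221 CPM in members of WT, DTR and B6, against 29192, 17455 and 6920 CPM in other cells, and were led by Col1a2, Col1a2 and Col1a1. The 9 fibroblast and epitenon markers summed to 4928, 2016 and 3085 CPM against 34373, 26416 and 27823 CPM, led by Dcn, Dcn and Gsn. In WT 50.1% of that sum came from 1 cell, and without the highest member of each library the sums were 2581, 1529 and 2657 CPM, so that WT was no longer above B6. The 18 muscle fibre genes summed to 270, 1057 and 582 CPM, above the 258, 528 and 357 CPM of other cells, led in each library by Tpm1. Without the highest member of each library these sums were 242, 757 and 555 CPM, which in WT lay below the other cells. The 8 macrophage markers summed to 7.99, 516 and 25.9 CPM, with 5, 0 and 2 of them at 0, and in DTR Lyz2 gave 469 CPM, of which 89.0% came from 1 cell. The 6 endothelial markers summed to 16.0, 7.95 and 414 CPM, and in B6 Fabp4 gave 318 CPM, of which 96.8% came from 1 cell. The 6 mural markers summed to 226, 131 and 356 CPM, led by Acta2, Acta2 and Rgs5. In B6 67.7% of that sum came from 1 cell. Without the highest member of each library the mural sums were 163, 64.9 and 119 CPM, so B6 was no longer above WT. The 5 Schwann cell markers summed to 4.00, 59.6 and 11.5 CPM and the 5 T cell markers to 0, 25.8 and 0 CPM. In DTR 1 cell gave 66.7% of the Schwann cell sum, and 1 cell gave all of the T cell sum. Members with at least 100 UMIs from the list of another type numbered 4, 4 and 5, and the calls made without them are given list by list.

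Satellite cells made up 0.527% (0.383 to 0.706) of kept cells in WT, 0.885% (0.673 to 1.14) in DTR and 1.5% (1.18 to 1.89) in B6. The share was 1.68-fold (1.12 to 2.55) higher in DTR than in WT, 2.85-fold (1.93 to 4.25) higher in B6 than in WT and 1.70-fold (1.18 to 2.44) higher in B6 than in DTR. Only the counting error is covered, and the amount of muscle left on the tendons of each pool was not measured. A larger share of satellite cells also cannot be told apart from a smaller number of the other cells, which in DTR had undergone toxin depletion.

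The order of the B6 share depended on the mitochondrial limit. Of its 72 members only 4 had at most 5% mitochondrial UMIs, compared with 36 of 44 in WT and 46 of 58 in DTR. At that limit the B6 share was 0.172% and its ratio to WT was 0.360. At a limit of 20% it was 1.89%, with 104 cells passing the rule. The ratio of DTR to WT lay between 1.46 and 1.89 under the other cell filters, rule thresholds and doublet treatment tried over all kept cells.

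**Figure D1:**
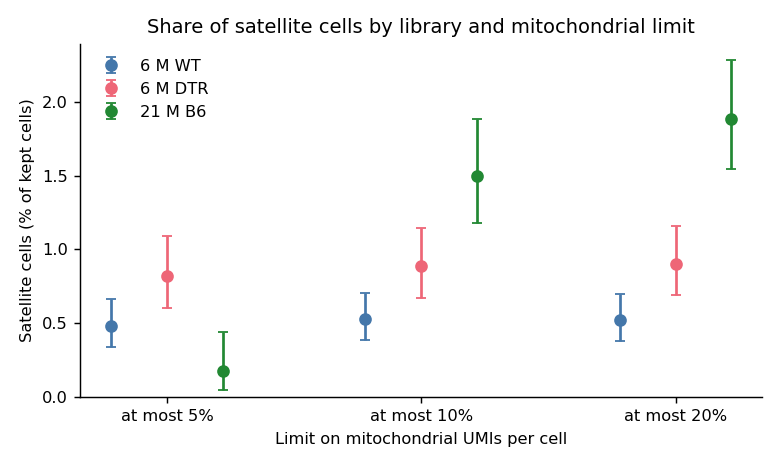
Share of satellite cells among kept cells (percent, y axis) when the limit on mitochondrial UMIs was 5, 10 or 20% (x axis), 1 point per library with its exact 95% binomial interval. At 5% the B6 library is the lowest of the 3 (0.172%), and at 10% it is the highest (1.5%).

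The rule genes chose the cells, so their levels are a description. Pax7 had 57 UMIs in 29 of 44 cells of WT, 87 UMIs in 37 of 58 cells of DTR and 105 UMIs in 52 of 72 cells of B6. These were levels of 114, 173 and 151 CPM, and the median cell had 1 Pax7 UMI in each library, with a highest cell of 6, 9 and 6. The ratio was 1.52 (1.07 to 2.16) for DTR over WT, 1.32 (0.951 to 1.86) for B6 over WT and 0.873 (0.651 to 1.17) for B6 over DTR. Both ratios to WT use the same WT cells. Under the alternatives tried they ran from 1.02 to 2.71 for DTR and from 0.532 to 2.70 for B6, and B6 over DTR from 0.389 to 1.08, so the direction of both B6 ratios depended on the cells taken. Pax7 was thus sparse in every library.

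Myod1 was the most abundant rule gene. It was at 967 CPM (484 UMIs in 27 cells) in WT, 1708 CPM (860 UMIs in 47 cells) in DTR and 1002 CPM (697 UMIs in 45 cells) in B6. The median cell had 3, 7 and 3 UMIs and the highest 96, 92 and 62. The ratio was 1.77 (1.58 to 1.98) for DTR over WT, 1.04 (0.921 to 1.17) for B6 over WT and 0.586 (0.530 to 0.649) for B6 over DTR. The DTR cells therefore stood above both other libraries in Myod1, and the ratio to WT lay between 1.64 and 3.26 under the alternatives tried. Over the same alternatives B6 over WT ran from 0.167, at the 5% mitochondrial limit with its 4 B6 cells, to 2.16, in cells with Y-linked and no Xist UMIs, so its direction was not stable, and B6 over DTR from 0.0826 to 0.715. Without the members with markers of other types the ratio of DTR over WT was 2.41. Cells with 10 or more Myod1 UMIs, 15 of 44, 25 of 58 and 24 of 72, held 90.1%, 88.7% and 88.7% of the Myod1 UMIs of their library, so the level was set by a minority of cells in each.

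Myf5 was lowest in DTR. It was at 246 CPM in WT, 115 CPM in DTR and 260 CPM in B6, and the median cell had 1, 0 and 1.5 UMIs. The ratio was 0.469 (0.337 to 0.646) for DTR over WT, 1.06 (0.837 to 1.34) for B6 over WT and 2.26 (1.67 to 3.09) for B6 over DTR, which became 0.479 at the 5% mitochondrial limit with its 4 B6 cells. Under the alternatives tried DTR over WT ran from 0.258 to 0.522 and B6 over WT from 0.228 to 1.68. Cdh15 was at 93.9, 73.5 and 63.2 CPM. Of the UMIs of all rule genes, Myod1 made up 68.1% in WT, 82.5% in DTR and 67.9% in B6.

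**Figure D2:**
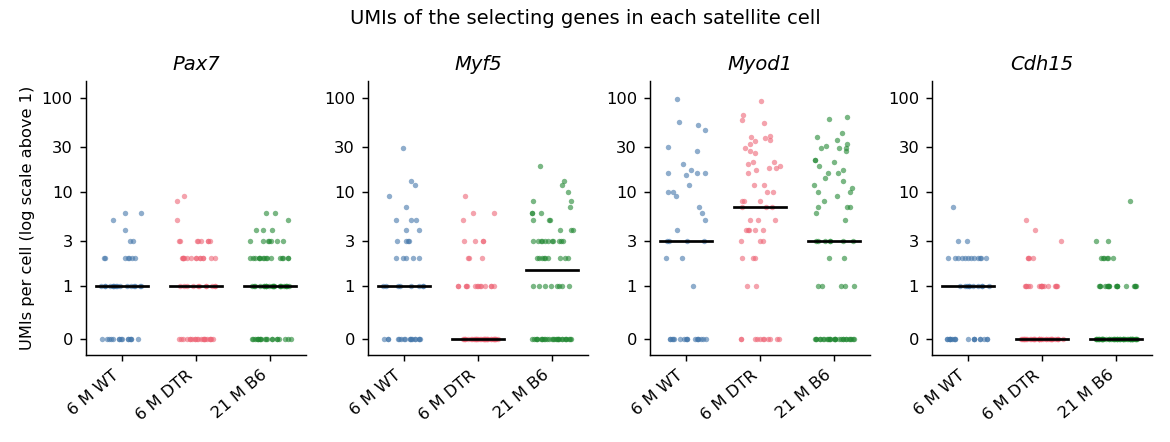
UMIs per member cell (y axis, linear below 1 and logarithmic above) of Pax7, Myf5, Myod1 and Cdh15 in the 3 libraries, 1 dot per cell with a bar at the median. Myod1 reaches 96 UMIs in a cell while Pax7 stays at 9 or fewer, and the Myod1 median of DTR (7) lies above those of WT and B6 (both 3).

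Shares of positive cells were compared after each cell was thinned to 2000 UMIs, which every member reached. Myod1 was then detected in 50.0% (34.6 to 65.4) of members in WT, 70.7% (57.3 to 81.9) in DTR and 47.2% (35.3 to 59.3) in B6. Pax7 was detected in 25% (13.2 to 40.3), 22.4% (12.5 to 35.3) and 31.9% (21.4 to 44.0), close to the detection limit of 1 UMI, and these intervals overlap throughout. The Pax7 shares of WT and DTR go against the order of the CPM values, so no order is read from them. Without thinning, Pax7 was detected in 65.9%, 63.8% and 72.2% of members and Myod1 in 61.4%, 81.0% and 62.5%. Asb5 was detected in 29.5%, 31.0% and 30.6% of thinned cells, nearly the same share in each library. Barcodes that should lack these genes, those with at least 10 UMIs of C1q or of the tendon genes, had thinned shares of at most 0.43% for Pax7 and Myod1 and 1.19% for Asb5, with median depths between 11555 and 16370 UMIs.

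**Figure D3:**
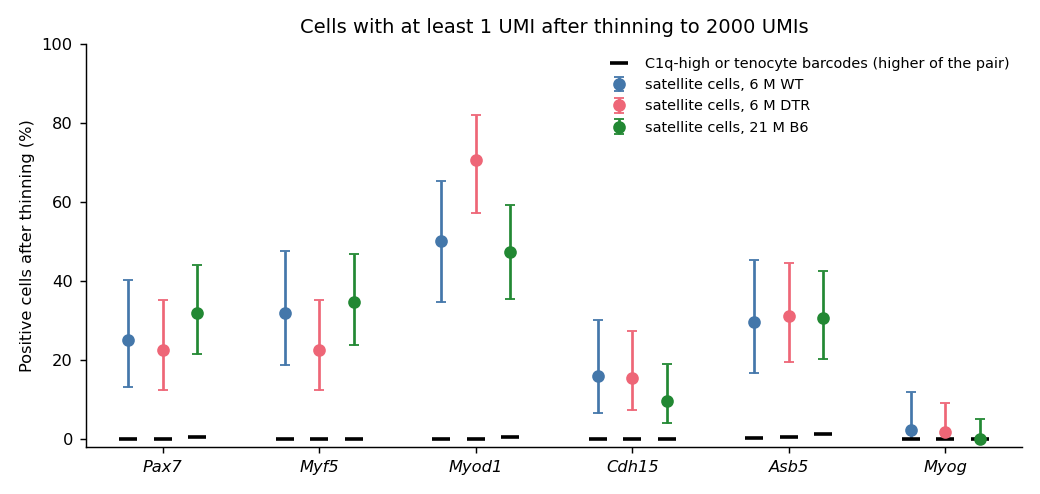
Share of members (percent, y axis) in which Pax7, Myf5, Myod1, Cdh15, Asb5 or Myog was detected after thinning to 2000 UMIs, 1 point per library with its exact 95% binomial interval. Black dashes give the higher of the shares in macrophage and tenocyte barcodes, and the Myod1 share is highest in DTR (70.7%) while the Asb5 shares lie between 29.5 and 31.0%.

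Cells were also sorted by which of Pax7 and Myod1 they had, using all UMIs. Pax7 without Myod1, the pairing known from quiescent cells, was found in 16 cells of WT (36.4%, 22.4 to 52.2), 9 cells of DTR (15.5%, 7.35 to 27.4) and 18 cells of B6 (25%, 15.5 to 36.6). Both genes were found together in 13, 28 and 34 cells (29.5%, 48.3% and 47.2%). Myod1 without Pax7 was found in 14, 19 and 11 cells (31.8%, 32.8% and 15.3%), and neither gene in 1, 2 and 9. Cells with Pax7 alone were thus the smallest share in DTR, and cells with Myod1 alone the smallest in B6, where neither-gene cells, which entered through Myf5 or Cdh15, were 12.5%. After thinning to 2000 UMIs, Pax7 alone was left in 9, 4 and 14 cells and Myod1 alone in 20, 32 and 25 cells. A Pax7 level near 1 UMI per cell means that a cell without a Pax7 UMI may still express the gene.

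Genes outside the rule differed between these states. Spry1, an inhibitor of growth factor signalling tied to quiescence, was at 67.9, 66.5 and 53.4 CPM in Pax7-only cells of WT, DTR and B6, and at 15.1, 33.0 and 8.3 CPM in Myod1-only cells. Chrdl2, a secreted chordin-like protein, was at 33.9, 33.3 and 80.1 CPM in Pax7-only cells and 7.6, 0 and 33.2 CPM in Myod1-only cells. The adhesion receptor gene Vcam1 was at 571, 632 and 262 CPM in Pax7-only cells and 295, 149 and 175 CPM in Myod1-only cells. These 3 genes, which were chosen after their values were seen, were higher in the Pax7-only cells of every library, although Spry1 and Chrdl2 had at most 15 UMIs in any of these states. Heyl and Cdkn1c had no such order. Heyl, a Notch target, was at 62.2, 99.8 and 32.0 CPM in Pax7-only cells and 113, 16.5 and 49.9 CPM in Myod1-only cells, higher in the former in DTR alone. Cdkn1c, the p57 inhibitor, was at 73.5, 150 and 53.4 CPM in Pax7-only cells against 60.5, 60.5 and 150 CPM in Myod1-only cells, lower in B6. Ccnd1, the G1 cyclin D1, had 90.5, 0 and 58.7 CPM in Pax7-only cells and 242, 137 and 8.3 CPM in Myod1-only cells, an order that did not hold in B6. Asb5 was at 166 CPM or more in every state of every library.

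Differentiation genes were sparse. Myog had 9 UMIs in 2 cells of WT, 6 UMIs in 1 cell of DTR and 2 UMIs in 1 cell of B6, levels of 18.0, 11.9 and 2.87 CPM. The ratio was 0.663 (0.194 to 2.09) for DTR over WT, 0.160 (0.0168 to 0.772) for B6 over WT and 0.241 (0.0238 to 1.35) for B6 over DTR. With at most 2 positive cells in a library, these intervals count transcripts and not cells. Under the alternatives with a value, the ratios to WT ran from 0 to 0.684 for DTR and from 0 to 0.611 for B6. B6 over DTR ran from 0 to 1.44, so its direction was not stable. The WT cells had 8 Myog UMIs beside 12 of Myod1 and none of Pax7, and 1 Myog UMI beside 96 of Myod1 and 2 of Pax7. The DTR cell had 6 Myog, 16 Mymx, 2 Mymk, 25 Ttn and 35 Chrna1 UMIs with 3 of Myod1 and none of Pax7, the profile of a differentiating myoblast in that single cell. The B6 cell had 2 Myog and 3 Myf5 UMIs and none of Myod1. Over all members the fusion genes Mymx and Mymk had 0, 17 and 0 and 1, 5 and 0 UMIs.

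For counts over lists, a gene was tested when it reached 50 CPM in 1 of the 2 libraries compared and was found in at least 20% of the members there, and was called higher or lower past a 2-fold ratio whose 95% counting interval excluded 1. Between DTR and WT, 206 of 3361 genes were called (6.13%), 98 higher (2.92%) and 108 lower (3.21%) in DTR. Between B6 and WT, 389 of 3213 were called (12.1%), 116 higher (3.61%) and 273 lower (8.5%) in B6. Between B6 and DTR, 328 of 3148 were called (10.4%), 97 higher (3.08%) and 231 lower (7.34%). The split of the B6 comparisons depended on the scaling. With trimmed-mean (TMM) scaling it was 221 higher and 89 lower against WT and 176 higher and 87 lower against DTR, whereas it was 98 and 91 for DTR over WT. Without the members with markers of other types, 121 genes were called higher and 136 lower of 3405 for DTR over WT. The counts were then 103 and 328 of 3196 for B6 over WT and 82 and 270 of 3170 for B6 over DTR. The median log2 ratio of all genes at 5 CPM or more was -0.01, -0.34 and -0.30 for the 3 comparisons by CPM and 0.02, -0.02 and -0.01 by TMM. Ratios of B6 by CPM are therefore to be read against a median gene that lies below 1. Several list medians of B6 that were below 0 by CPM were above 0 by TMM, those over WT and DTR being 0.01 and 0.26 for ligands and inhibitors, 0.29 and 0.22 for receptors, 0.15 and 0.14 for glycolysis and 0.22 and 0.24 for ribosome biogenesis. Against DTR alone this was so for cyclins and inhibitors (0.16), niche genes (0.07) and metallothionein and oxidative stress genes (0.22). Many calls on list genes rested on few cells. Of 133 such calls, 79 were still past the same limits when the cell with the most UMIs of the gene was left out of the higher library, 16 of 36 for DTR over WT, 34 of 52 for B6 over WT and 29 of 45 for B6 over DTR. The calls that were not were B2m, Ccl2, Ccl7, Cdkn1a, Col6a2, Cxcl2, Dcn, Fstl1, Gsn, Heyl, Hspa1a, Hspb1, Ier5, Itga7, Klf4, Msc, Nr4a1, Tnfrsf1a, Tpm1 and Ttn for DTR over WT. For B6 over WT they were Acta2, Adam10, Ccl2, Ccn3, Chrdl2, Col3a1, Col5a1, Col6a2, Gadd45b, Gpx1, Hbegf, Hes1, Hmox1, Hsph1, Mt2, Sparc, Tagln and Tnnt1, and for B6 over DTR Acta1, Ccl7, Ccn3, Col6a3, Cxcl2, Ddx3y, Gadd45b, H2-K1, Hbegf, Hes1, Mt1, Notch2, Nr4a1, Tpm1, Ttn and Vcam1.

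Of 24 satellite cell genes outside the rule, 14 were tested between DTR and WT, and Msc and Itga7 were called lower and none higher. Of 16 tested between B6 and WT, Chrdl2 was called higher and Vcam1, Msc and Itga7 lower, and the same 4 were called with TMM scaling. Of 14 tested between B6 and DTR, Chrdl2 and Dmrt2 were called higher and Vcam1 lower, although with TMM scaling Vcam1 was no longer called. Without the members with markers of other types, Itga7 and Dag1 were called lower in DTR than in WT and Msc was not, the same 4 genes were called between B6 and WT, and Chrdl2 was called higher and Vcam1 and Msc lower in B6 than in DTR. The median log2 ratios of the list were -0.14, -0.11 and -0.21 by CPM and -0.11, 0.21 and 0.07 by TMM, so for B6 the sign of the median depended on the scaling.

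Vcam1, an adhesion receptor of satellite cells, was at 553 CPM in WT, 455 CPM in DTR and 210 CPM in B6. Its ratio was 0.379 (0.308 to 0.465) for B6 over WT and 0.461 (0.372 to 0.570) for B6 over DTR. Msc, or musculin, a repressor of myogenic factors, was at 318, 113 and 34.5 CPM. Its ratio was 0.357 (0.259 to 0.485) for DTR and 0.109 (0.0676 to 0.167) for B6 over WT, where 41.5% of the WT UMIs came from 1 cell. Without that cell the ratios were 0.582 and 0.177, so DTR was no longer past 2-fold. Itga7, the laminin-binding integrin of muscle, was at 77.9, 37.7 and 23.0 CPM, with ratios of 0.484 (0.264 to 0.859) and 0.295 (0.154 to 0.540) over WT, or 0.544 and 0.331 without the WT cell with the most Itga7. These 3 genes were lowest in B6.

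Chrdl2 was at 21.97, 13.9 and 51.7 CPM, 2.35-fold (1.17 to 5.13) higher in B6 than in WT and 3.72-fold (1.63 to 9.91) higher than in DTR, or 1.94-fold (0.940 to 4.30) and 3.06-fold (1.31 to 8.28) without the B6 cell with the most Chrdl2. Calcr, the calcitonin receptor of quiescent satellite cells, had 0, 4 and 13 UMIs in 0, 4 and 10 cells, too few to be tested. The cells with Myod1 and no Pax7 had no Calcr UMI in any library. Sdc4, a heparan sulphate proteoglycan and the most abundant gene of the list, was at 1768, 1319 and 1118 CPM, and Dag1, dystroglycan, at 733, 479 and 411 CPM. Ncam1 was at 342, 238 and 203 CPM and Chodl at 65.9, 117 and 92.0 CPM, none of these 4 being called over all members. Pax3, the paralogue of Pax7, had 0, 0 and 5 UMIs.

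**Figure D4:**
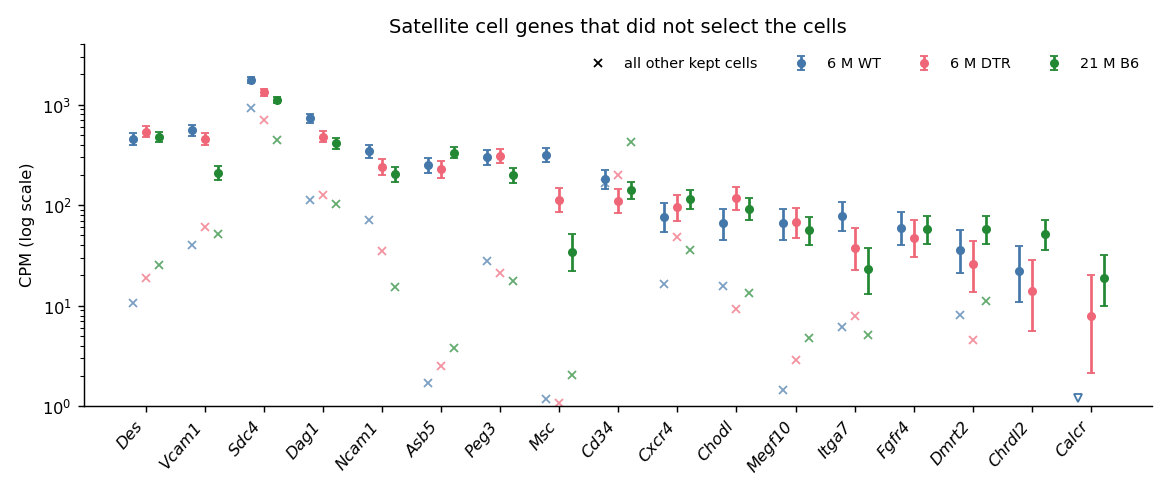
Level in members (CPM, logarithmic y axis) of 17 satellite cell genes outside the rule, 1 point per library with its exact 95% counting interval, with crosses for all other kept cells of the same library (crosses below 1 CPM are not drawn). The open triangle marks Calcr at 0 UMIs in WT, and Vcam1, Msc and Itga7 are lowest in B6.

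Of 18 genes tied to quiescence, 10 were tested in each comparison. Heyl, a Notch target, was called lower in DTR than in WT, and Hes1, another Notch target, was called higher in B6 than in either young library. With the members with markers of other types left out, Hes1 was called in B6 over DTR but not over WT. Heyl was at 57.9 CPM in WT, 23.8 CPM in DTR and 35.9 CPM in B6, with a ratio of 0.412 (0.191 to 0.832) for DTR over WT that became 0.582 (0.259 to 1.25) without the WT cell with the most Heyl. Hes1 was at 45.9, 41.7 and 94.8 CPM, 2.06-fold (1.27 to 3.48) higher in B6 than in WT, or 1.74-fold (1.05 to 2.96) without the B6 cell with the most Hes1. The other kept cells had 104, 156 and 289 CPM of Hes1, so B6 was highest outside the members too. The median log2 ratio of the list was 0.14 for DTR over WT, 0.31 for B6 over WT and 0.33 for B6 over DTR. On cells thinned before summing, the median for DTR over WT was -0.14.

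Among 19 Notch pathway genes, 8, 8 and 7 were tested. Beside Heyl and Hes1, Adam10, a protease that cuts the receptor, was called lower in B6 than in WT, and Notch2 lower in B6 than in DTR, and with TMM scaling Hes1 was the only one called in B6 over either young library. Once the members with markers of other types were left out, Notch1 and Heyl were called lower in DTR than in WT and Adam10 lower in B6 than in WT and DTR, and Notch2 was not called. Notch3, the most abundant receptor of the members, was at 182, 219 and 175 CPM against 12.0, 20.7 and 9.6 CPM in other cells. Its ratios were 1.2 (0.902 to 1.60) for DTR and 0.964 (0.729 to 1.28) for B6 over WT. The median log2 ratios of the list were 0.04, 0.00 and -0.01 by CPM and 0.07, 0.32 and 0.28 by TMM.

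Proliferation genes were near the detection limit. Mki67, the marker of cycling cells, had 0, 1 and 0 UMIs and Top2a 2, 1 and 0 UMIs in the members of WT, DTR and B6. Of 20 proliferation genes, 3 were tested and none was called, and the DNA clamp gene Pcna was at 188, 209 and 221 CPM. After thinning, Mki67 was found in 1.72% of members in DTR and in none of the other libraries, against 13.0%, 11% and 8.46% of macrophage barcodes.

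Among 19 cyclins and cell cycle inhibitors, 11 were tested. Cdkn1a, the p21 inhibitor, was called higher in DTR than in WT and was the only gene of the list called there. It was at 683 CPM in WT, 1440 CPM in DTR and 901 CPM in B6, with a ratio of 2.11 (1.85 to 2.40) for DTR over WT, or 1.94 (1.70 to 2.22) without the DTR cell with the most Cdkn1a. The other cells had 1044, 986 and 1219 CPM. Ccnd1 was at 148, 105 and 30.2 CPM and was called lower in B6 than in WT, with a ratio of 0.204 (0.119 to 0.335), and lower than in DTR. Gadd45b, a stress-inducible growth arrest gene, was at 146, 145 and 319 CPM and was called higher in B6 than in either young library. It was called in neither comparison without the members with markers of other types, nor without the B6 cell with the most Gadd45b, at ratios of 1.90 over WT and 1.91 over DTR. Without the members with markers of other types, Cdkn1a and Gadd45g were called higher and Ccnd1 lower in DTR than in WT, Ccnd1 lower in B6 than in WT and Cdkn1a lower in B6 than in DTR. Gadd45g was called higher in B6 than in WT by CPM and with TMM scaling, but not without the members with markers of other types. Cdkn1c was called higher there with TMM scaling but not by CPM. Over the list the median log2 ratios were -0.17, -0.48 and -0.12.

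Of 26 differentiation and fusion genes, 5 were tested in each comparison. Tnnt1 and Ttn were called lower in DTR than in WT, but with TMM scaling only Tnnt1 was, and without the members with markers of other types Chrna1, Neb and Ttn were. Mef2a, Tnnt1 and Chrna1 were called lower in B6 than in WT, but with TMM scaling only Chrna1 was called lower, with Cdkn1c higher, and without the members with markers of other types Chrna1 and Neb were. Mef2a, Chrna1 and Ttn were called lower in B6 than in DTR with either scaling, and Mef2a alone without the members with markers of other types. Mef2a, a MADS-box factor that works with Myod1 and Myog, was at 509, 584 and 211 CPM. Chrna1, the acetylcholine receptor subunit of muscle, was at 106, 125 and 17.2 CPM, 55.6% of the DTR UMIs being from 1 cell. Ttn, the giant sarcomere protein titin, was at 220, 109 and 31.6 CPM, and 1 cell gave 45.5%, 45.5% and 22.7% of it. Without the WT cell with the most Ttn the ratio of DTR over WT was 0.896 (0.610 to 1.31), which is no longer past 2-fold. The list medians were 0.36, -1.13 and -1.20 in log2 ratio, and on thinned cells the median for DTR over WT was -0.40. At the 5% mitochondrial limit, which left 4 cells of B6, the medians of B6 were 0.96 over WT and 0.33 over DTR.

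Over all members, the basal lamina and adhesion genes of the niche that were called between DTR and WT were lower in DTR. Of 28 such genes 21 were tested between DTR and WT, and Col4a1, Col4a2, Col6a2 and Itga7 were called lower and none higher. Without the WT cell with the most UMIs of the gene, Col6a2 (0.525) and Itga7 (0.544) were short of 2-fold. Without the members that had markers of other types, 7 were called lower and 1, Col6a3, higher. Col4a1, a chain of the collagen of the basal lamina, was at 304 CPM in WT, 59.6 CPM in DTR and 168 CPM in B6, with a ratio of 0.196 (0.128 to 0.292) for DTR over WT. The other kept cells had 107, 119 and 149 CPM of Col4a1. Col5a1, Col6a2, Itga7 and Sparc were called lower in B6 than in WT, but with TMM scaling only 1 of the list was. Sparc, a collagen-binding glycoprotein, was at 771, 467 and 379 CPM against 5313, 4004 and 1324 CPM in other cells. Of 19 tested between B6 and DTR, Col4a1 and Col4a2 were called higher and Col6a3 lower, the last not with TMM scaling. Once the members with markers of other types were left out, Col5a1, Fn1 and Itga7 were called lower in B6 than in WT, and Col6a3 and Fn1 lower and the same 2 collagen genes higher in B6 than in DTR. The medians were -0.36, -0.62 and -0.22, and fibroblast markers, which share matrix genes with this list, summed higher in WT than in DTR members with or without the highest cell of each, and their part in these ratios was not tested.

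Of 22 ligands and inhibitors, 9 were tested. Hbegf, an epidermal growth factor receptor ligand whose primate form is the receptor of diphtheria toxin, was called higher in DTR than in WT, and Fstl1 and Bmp4 lower. Hbegf was at 53.9, 117 and 290 CPM, but 76.7% of the B6 UMIs came from 1 cell, without which B6 was at 70.2 CPM and at 1.30 of WT and 0.599 of DTR. The DTR ratio was 2.17 (1.36 to 3.56), with Hbegf in 8 of 44 and 33 of 58 cells. Whether transcripts of the DTR transgene were counted as Hbegf was not tested. Bmp4 was at 130, 41.7 and 83.3 CPM and Fstl1 at 218, 101 and 177 CPM. Hbegf was the only ligand called in B6 over WT, and against DTR Hbegf was called higher and the signalling inhibitor Spry2 lower. With TMM scaling Fstl1, Bmp4 and Hbegf were called higher in B6 than in DTR and Spry2 was not called. With the members with markers of other types left out, Hbegf was called in no comparison, Csf1 and Nampt were called higher in DTR than in WT and Fstl1 and Bmp4 again lower, none was called in B6 over WT, and Csf1 and Spry2 were called lower in B6 than in DTR. Tgfb2, the most abundant gene of the list in WT and DTR, was at 336, 320 and 201 CPM, and Hgf, the classical activator of satellite cells, had 0, 1 and 1 UMIs. The list medians were 0.05, -0.30 and -0.03.

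Among 22 growth factor and cytokine receptors, 13 were tested. Tnfrsf1a was called lower in DTR than in WT and higher in B6 than in DTR, at 97.9, 45.7 and 126 CPM. The first of these calls was not made without the members with markers of other types, when Met was called lower in DTR than in WT. Met, the receptor of Hgf, was at 89.9, 55.6 and 31.6 CPM and was called lower in B6 than in WT, with a ratio of 0.352 (0.201 to 0.598). Tnfrsf12a, the TWEAK receptor and the most abundant receptor of the 3 named here, was nearly level at 1171, 1136 and 1101 CPM, with ratios of 0.971 (0.864 to 1.09) and 0.940 (0.843 to 1.05) over WT. The list medians were -0.12, -0.03 and -0.07.

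Immediate early genes were the list with the most calls in both comparisons with WT, which share the WT cells. Of 24 genes 23 were tested, and 7 were called higher in DTR than in WT (Fos, Fosb, Ier5, Klf2, Klf4, Nr4a1 and Socs3), 11 higher in B6 than in WT and 5 higher in B6 than in DTR, with none lower in any comparison. With TMM scaling the counts for B6 were 17 and 9, again with none lower. Without the members with markers of other types, 9, 13 and 4 were called higher in the 3 comparisons, and Klf2 was called lower in B6 than in DTR. The medians were 0.53, 0.91 and 0.38 in log2 ratio, the last of which was -0.086 among cells with Y-linked and no Xist UMIs. The 24 genes summed to 7375, 11033 and 15424 CPM in members and to 12940, 16223 and 22187 CPM in the other kept cells, so the same order was present outside the satellite cells. These genes respond quickly to dissociation, and digestion was longest in WT, where they were lowest, so digestion time and group cannot be told apart in the comparisons with WT, whereas DTR and B6 had the same digestion time.

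Fos, a subunit of the AP-1 transcription factor, was at 481 CPM in WT, 1412 CPM in DTR and 2368 CPM in B6, although 61.4% of the WT UMIs came from 1 cell. The ratio was 2.93 (2.53 to 3.41) for DTR and 4.92 (4.29 to 5.65) for B6 over WT, against 1.5 and 2.01 in the other cells. After thinning, Fos was detected in 18.2%, 37.9% and 55.6% of members, 50.7%, 75.3% and 72.9% of tenocyte barcodes and 48.1%, 61.3% and 44.5% of macrophage barcodes. Egr1, an immediate early zinc finger gene, was at 1015, 838 and 1865 CPM and was called in B6 over DTR, and with TMM scaling over WT as well. Klf2 was at 65.9, 356 and 203 CPM, 5.39-fold (3.71 to 8.08) higher in DTR than in WT. Zfp36, which destabilises mRNA, was at 69.9, 73.5 and 424 CPM, 6.06-fold (4.26 to 8.87) higher in B6 than in WT. Klf2 was thus highest in DTR, whereas Zfp36 was level between the young libraries.

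Of 21 heat shock and proteostasis genes, 20 were tested, and Hspa1a and Hspb1 were called higher in DTR than in WT, 7 were called higher in B6 than in WT and 6 higher in B6 than in DTR, with none lower. Without the DTR cell with the most UMIs, the DTR ratios were 1.95 for Hspa1a and 1.92 for Hspb1, short of 2-fold. With TMM scaling 9 were called higher in each of the B6 comparisons, and without the members with markers of other types 2, 6 and 6 were called higher in the 3 comparisons. The medians were 0.18, 0.64 and 0.68. Hspa1a, an inducible HSP70, was at 29.96 CPM in WT, 67.5 CPM in DTR and 993 CPM in B6, in 9 of 44, 18 of 58 and 40 of 72 cells. The ratio was 2.25 (1.2 to 4.45) for DTR over WT, 33.1 (19.9 to 59.5) for B6 over WT and 14.7 (10.4 to 21.4) for B6 over DTR. Leaving out the B6 cell with the most Hspa1a left 26.0. Hspa1b was at 47.9, 91.4 and 983 CPM, 20.5-fold (13.7 to 32.2) higher in B6 than in WT.

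The same order was seen outside the satellite cells, where Hspa1a was at 100, 125 and 908 CPM, a ratio of 9.03 for B6 over WT. In B6 members and other cells were therefore alike in Hspa1a, whereas in WT and DTR the members were lower. Thinned shares positive for Hspa1a were 4.55%, 19.0% and 34.7% in members, 11%, 13.0% and 40.8% in tenocyte barcodes and 41.6%, 33.6% and 63.8% in macrophage barcodes. Hspb1 was at 190, 417 and 736 CPM, Dnaja1 at 609, 767 and 1762 CPM and Hsp90aa1 at 811, 1009 and 2253 CPM. The constitutive Hsp90ab1 was level at 2539, 2527 and 2638 CPM, with ratios of 0.995 (0.920 to 1.08) and 1.04 (0.967 to 1.12) over WT. The cognate HSP70 gene Hspa8, at 1206, 1285 and 2287 CPM, was highest in B6 as well but short of 2-fold by CPM, so that Hsp90ab1 stood apart among the genes named here.

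**Figure D5:**
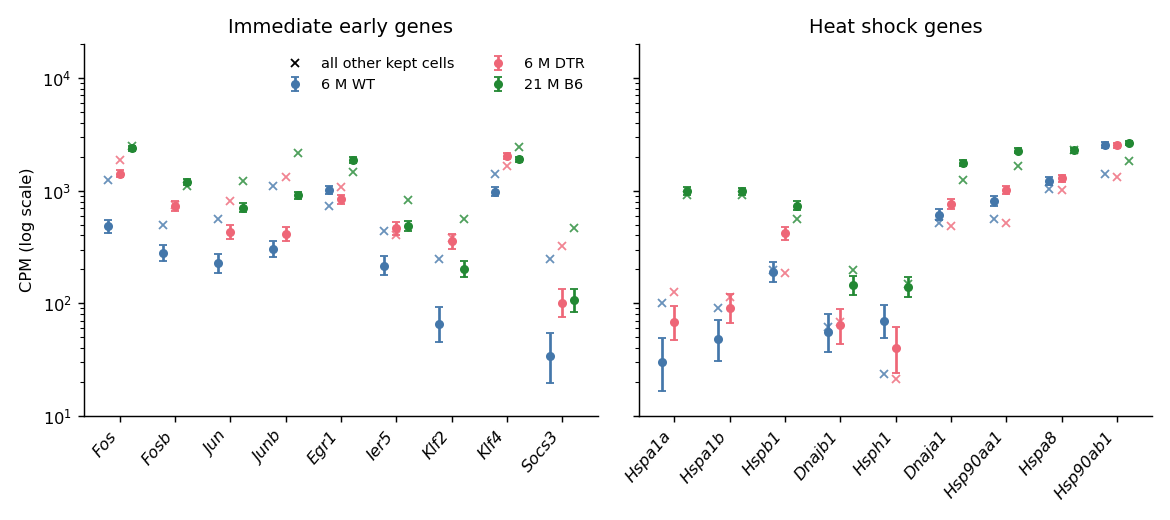
Level in members (CPM, logarithmic axis) of 9 immediate early genes and 9 heat shock genes, 1 point per library with its exact 95% counting interval, with crosses for all other kept cells of the same library. Hspa1a and Hspa1b lie near 1000 CPM in B6 members and below 100 CPM in WT and DTR members, and Hsp90ab1 is at the same level in all 3.

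Inflammatory genes included the chemokine genes Ccl2 and Ccl7, whose totals rested on single cells. Of 24 genes 10 were tested, and Cxcl2 and Socs3 were called higher and Ccl2 and Ccl7 lower in DTR than in WT. Ccl2 was at 1440, 95.4 and 526 CPM, but 93.2% of the WT UMIs came from 1 cell, and without it the DTR ratio of 0.0662 became 0.928. For Ccl7, at 250, 61.6 and 131 CPM, 85.6% came from 1 cell, and its ratio of 0.247 became 1.63. Without the members that had markers of other types, 5 genes of the list were called higher in DTR and none lower. In B6, Socs3 was called higher and Ccl2 lower than in WT, and Ccl2 and Ccl7 higher and Cxcl2 lower than in DTR. The Ccl2 ratio of B6 over WT turned to 5.12 (3.79 to 7.05) without the same WT cell, and that of Ccl7 over DTR was 1.30 (0.820 to 2.08) without the B6 cell with the most Ccl7. With TMM scaling Nfkbia was also called higher in B6 than in WT and Cxcl2 was not called against DTR. Once the members with markers of other types were left out, Ccl7, Nfkbiz and Socs3 were called higher and Cxcl2 lower in B6 than in WT, and Ccl7 higher and Cxcl1 and Cxcl2 lower than in DTR. Cxcl1 was at 949, 1309 and 978 CPM. The medians were -0.13, 0.04 and 0.60.

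Of 18 interferon and class I genes, B2m was the only gene called in DTR over WT (4 tested), at 178, 358 and 354 CPM. Irf1 and Isg15 were called higher in B6 than in WT (7 tested), or 4 genes with TMM scaling, and H2-K1, Irf1, Isg15 and Gbp2 higher in B6 than in DTR (7 tested). With the members with markers of other types left out, B2m was not called in DTR over WT, nor H2-K1 in B6 over DTR, and the other calls were made again. Irf1, an interferon-responsive transcription factor, was at 34.0, 29.8 and 112 CPM. Isg15 was at 5.99, 17.9 and 159 CPM, but 58.6% of the B6 UMIs came from 1 cell, and its ratio over WT of 26.6 (8.87 to 131) became 11.5 without that cell. The medians were 0.38, 0.99 and 1.77.

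Stress and metabolic genes of 3 further lists had few calls. Of 14 metallothionein and oxidative stress genes 12 were tested: none was called in DTR over WT, Mt2 and Gpx1 were called higher and Hmox1 lower in B6 than in WT, and Mt1 and Mt2 higher than in DTR, with medians of 0.00, 0.14 and -0.06. With TMM scaling Mt1, Mt2, Srxn1 and Gpx1 were called higher in B6 than in WT and Hmox1 was not called. With the members with markers of other types left out, Mt1 and Mt2 were called higher in B6 than in WT and Mt2 alone against DTR. Mt1 was at 2986, 2787 and 5881 CPM against 7793, 4144 and 10981 CPM in other cells. Of 17 glycolysis genes, Hk2 alone was called over all members by CPM, higher in B6 than in either young library, at 244, 276 and 595 CPM. Tpi1 was also called higher in B6 than in WT with TMM scaling, and Pdk4 lower in DTR than in WT without the members with markers of other types, and the medians were -0.08, -0.16 and -0.15. Of 14 ribosome biogenesis and growth genes 12 were tested, and Dkc1 was called lower in B6 than in WT, though neither with TMM scaling, when Odc1 was called higher, nor without the members with markers of other types, with medians of -0.13, -0.09 and -0.04 and the nucleolar gene Ncl at 1770, 1587 and 1598 CPM.

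Muscle fibre genes were called higher in the members of DTR. Of 18 genes 5 were tested between DTR and WT, and Acta1, Mylpf, Tnnc2 and Tpm1 were called higher, or Acta1 and Tnnc2 of 4 tested without the members with markers of other types. Tnnc2, fast troponin C, had 0 UMIs in WT, 39 in DTR and 37 in B6, so that it was at least 12.9-fold higher in DTR and at least 8.87-fold higher in B6 than a floor of 3 UMIs over the WT members. Without the cell with the most Tnnc2, which held 41.0% of the DTR UMIs, these bounds were 7.77-fold and 8.11-fold. For Mylpf 60% of the DTR UMIs came from 1 cell, and its ratio of 9.94 became 4.05 without it, while that of Tpm1 fell short of 2-fold at 1.56 (1.09 to 2.26). Acta1, skeletal actin, was at 39.95, 167 and 79.0 CPM against 14.5, 64.5 and 38.6 CPM in other cells, the same order as in the members. The rule limits Acta1, although no cell was removed by that limit, and its values are a description. Mylpf and Tnnc2 were called higher in B6 than in WT, and Acta1 and Tpm1 lower in B6 than in DTR, although with TMM scaling, or without the members with markers of other types, none was called between B6 and DTR. Acta1 joined Mylpf and Tnnc2 in B6 over WT under both of these alternatives. The medians were 2.06, 0.89 and -0.70. Kept barcodes with 50 or more UMIs of Acta1 and Ckm numbered 4, 14 and 5, so fibre RNA was also more frequent in the whole DTR library, and its part in the members' fibre genes was not tested.

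Beyond the lists, the largest ratios of DTR over WT were those of Tnnc2, the lysozyme gene Lyz2, Hba-a1, Mylpf, Hba-a2, Spp1, Klf2, Jph1, Hbb-bs and Ankrd1. Lyz2 had 1 UMI in WT and 236 in DTR, a ratio of 235 (41.7 to 9309), and of 26.7 without the highest cell. The haemoglobin genes Hba-a1 and Hbb-bs, products of red cells, were at 5.99, 67.5 and 4.31 CPM and at 39.95, 189 and 27.3 CPM, with 11.3-fold and 4.72-fold ratios and ratios of 3.63 and 3.30 in other cells. Spp1, osteopontin, was at 39.95, 228 and 1.44 CPM, but 62.6% of the DTR UMIs came from 1 cell, and its ratio of 5.72 became 2.16 without it. Ankrd1, a stretch-responsive muscle ankyrin repeat gene, was at 32.0, 135 and 135 CPM, a ratio of 4.23 where the other cells had 0.503. Ankrd1 was thus higher in the members of both DTR and B6, while the other DTR cells were lower.

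The smallest ratios of DTR over WT were those of Ccl2, Gal, Col4a1, Tnnt1, Tm4sf1, Meg3, Nrep, Ccl7, Tnxb and Nab2. The galanin gene Gal was at 87.9, 13.9 and 266 CPM, a ratio of 0.158. Meg3, an imprinted non-coding RNA, was at 220, 47.7 and 151 CPM, a ratio of 0.217, or 0.396 without the WT cell that held 46.4% of its UMIs. Nrep was at 210, 45.7 and 40.2 CPM, a ratio of 0.218. Tnxb, the matrix gene tenascin XB, was at 126, 31.8 and 97.7 CPM, a ratio of 0.253, or 0.421 without the WT cell that held 42.9%. Nrep was lower in both DTR and B6, whereas Gal and Meg3 were low in DTR only among these 3 libraries. In the other kept cells the Nrep ratios over WT were 0.933 for DTR and 0.146 for B6, so B6 was lower outside the members too.

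The largest ratios of B6 over WT were those of Tnnc2, Hspa1a, Isg15, Hspa1b, Neu2, Irgm1, Anxa3, Rasl11a, Erfe and Kctd12. Neu2, a cytosolic sialidase, was at 5.99, 55.6 and 96.3 CPM, a 16.1-fold ratio where the other cells had 1.18. Anxa3, an annexin, was at 12.0, 15.9 and 118 CPM, a 9.83-fold ratio where the other cells had 1.58. Erfe, the hormone gene erythroferrone, which muscle also makes, was at 12.0, 17.9 and 89.1 CPM, a 7.43-fold ratio where the other cells had 3.69. Neu2 was thus high in DTR and B6, and Anxa3 and Erfe in B6. At the 5% mitochondrial limit, which left 4 cells of B6, Erfe was not detected in them.

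The smallest ratios of B6 over WT were those of Mfap3l, Prune2, Msc, Vgll2, Chrna1, Arl4c, C1qtnf3, Synj2bp, Nrep and Ccnd1. Mfap3l was at 59.9, 31.8 and 1.44 CPM, a ratio of 0.0240 (0.000588 to 0.144) on 1 UMI in B6. Vgll2, a cofactor of TEAD factors that is prominent in skeletal muscle, was at 230, 179 and 33.0 CPM, a ratio of 0.144. C1qtnf3, a secreted C1q and TNF related protein, was at 366, 209 and 67.5 CPM, a ratio of 0.185. Mfap3l and C1qtnf3 were highest in WT and lowest in B6, with DTR between. For Vgll2 26.1% of the WT UMIs came from 1 cell, and its ratio was 0.191 without that cell.

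Between B6 and DTR the largest ratios were those of Hspa1a, Hspa1b, Isg15, Tnfaip6 and Anxa3, and the smallest those of Spp1, Lyz2, Hba-a2, Hba-a1 and Wincr1. Tnfaip6, a hyaluronan-binding gene induced in inflammation, had a ratio of 8.64, or 4.43 without the cell that held 50.7% of its B6 UMIs. Of the genes called, 13 of 206 in DTR over WT, 59 of 389 in B6 over WT and 58 of 328 in B6 over DTR were also past 2-fold in the same direction in the other kept cells.

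Both sexes were present among the members of each library. Cells with UMIs of Xist and none of the Y-linked genes numbered 22, 14 and 35, and cells with Y-linked UMIs and no Xist 16, 31 and 17. The share among kept cells so called was 0.431%, 0.653% and 1.62% for Xist-only cells and 0.804%, 1.00% and 0.994% for Y-only cells, so the higher B6 share was carried mostly by the former. Myod1 was at 1416, 2532 and 1076 CPM in Xist-only members and 467, 1524 and 1008 CPM in Y-only members, and DTR was highest in both. Pax7 was at 66.8, 168 and 180 CPM in Xist-only members and 168, 172 and 89.3 CPM in Y-only members, so its order among the libraries was not the same in the 2 sets. Xist was the only sex-linked gene called between DTR and WT, as it was lower in DTR, where Y-only cells were the majority of the called cells.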

How the data were processed

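FDL tendon cells were captured with the 10x Genomics Chromium 3′ version 3 kit, 1 library per group. The deposited values are whole-number UMI counts per gene and barcode, which the authors made with Cell Ranger, version 6.0.1 per the file headers and 2.1.1 per the submitters' processing notes. The genome build and annotation were not given in the sources used here. The files listed 32285 genes and no barcode under 500 UMIs. The labels give 3 months, the age at toxin injection, as the age of WT and DTR.

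The members and gene lists were chosen with earlier results of these data known. UMIs were summed over the members of a library and scaled to CPM. Ratios had exact conditional binomial intervals, levels exact Poisson intervals and shares Clopper-Pearson intervals, all at 95%, which cover counting error only, since cells of 1 library are not replicates. No p-value was computed. Genes were named by rule: the rule genes, Asb5, Myog, list members, and for each comparison with WT the 10 highest and 10 lowest ratios (5 each for B6 over DTR) among the genes tested with an interval off 1. Symbols with 2 identifiers were left out of the lists. Some genes are in 2 of the 25 lists (among them Hes1, Heyl, Itga7, Sdc4, Socs3, Cdkn1c and Dag1). Tests on simulated counts for DTR over WT recovered 87.0% of 2.5-fold and 100% of 4-fold changes and called 1.06% of unchanged genes. The simulated counts had Poisson error alone, with no spread between cells and every gene taken as detected in all of them. These rates therefore do not give the error of the calls on the data, many of which rested on few cells. Doublets were kept: the threshold of Scrublet worked in 1 of 3 libraries (1, 115 and 1 calls), so leaving out the highest 6% of scores was the alternative. Promoters and gene positions came from RefSeq and GENCODE tables on GRCm38. TMM factors came from edgeR 4.0.16 in R 4.3.3, and Scrublet was run through scanpy 1.11.5 in Python 3.11.15, with pandas 2.3.3, scipy 1.17.1, matplotlib 3.10.9 and numpy 2.4.6.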

Additional observations from a re-analysis of the deposited data

Results flagged for a closer look

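Barcodes outside the cell filter also met the UMI limits of the rule, and these were not used in any comparison. In B6, 35 of 808 barcodes with 1000 to 5000 genes and more than 10% mitochondrial UMIs did so (4.33%, 3.04 to 5.97). The counts were 0 of 152 in WT and 3 of 240 in DTR. With no limit on genes, 2, 4 and 38 barcodes of WT, DTR and B6 above 10% met the UMI limits. These 35 barcodes had Pax7 at 199 CPM, Myod1 at 927 CPM and Asb5 at 302 CPM, with no Myog UMI, a median of 5848 UMIs and a median mitochondrial share of 13.5%. Among barcodes with more than 5000 genes and at most 10% mitochondrial UMIs, 5 of 659 in DTR met the limits (0.759%, 0.247 to 1.76). The counts there were 4 of 732 in WT and 2 of 357 in B6. Those 5 had Pax7 at 51.4 CPM, Myod1 at 698 CPM and Asb5 at 257 CPM.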

How the results depend on the processing

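No paired analysis was possible because each group has 1 library. With 1 library per group no count of calls has a replicate check, Pax7 and Myog lie near the level of 1 UMI per cell, and the alternatives below that split cells by sex, exclude cells with markers of other types, leave out the highest cell, use the 20% limit or drop mitochondrial genes from the CPM were chosen after seeing the data, as were all alternatives for the Pax7 and Myod1 states and the use of Scrublet scores. Causes of the differences below were not tested. At 5% mitochondrial UMIs (4 B6 cells) the B6 share was 0.172% (0.360 of WT, 0.211 of DTR). Genes called were then 611 for B6 over WT and 607 for B6 over DTR. The Myod1 ratios were 2.02 (DTR over WT), 0.167 (B6 over WT) and 0.0826 (B6 over DTR), those of Pax7 0.543 and 0.389 for B6, and that of Myf5 0.479 for B6 over DTR. Erfe was at 0, the differentiation medians were 0.96 and 0.33, thinned B6 shares were 0% for Pax7 and 25% for Myod1, and the B6 states were 50% Pax7 alone, 0% both and 50% Myod1 alone. At 20% the B6 share was 1.89%.

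With 2 rule UMIs the thinned Myod1 share of DTR was 56.7%. With 5 rule UMIs the WT share was 0.371%, 314 genes were called for DTR over WT, Ccl2 was at 1.08 and Ccl7 at 2.73, the heat shock median was 0.35, thinned Myod1 shares were 84.8% (DTR) and 61.4% (B6), and Pax7 alone in DTR was 4.35%. With 2 rule genes detected the Myod1 ratio of DTR over WT was 2.0 and the Pax7 share of DTR 36.2%. With Acta1 and Ckm under 10 UMIs the Myod1 ratios to WT were 2.25 (DTR) and 1.24 (B6). With TMM the Myod1 ratios of B6 were 1.29 over WT and 0.715 over DTR. On cells thinned before summing, 114, 217 and 164 genes were called, the Pax7 ratios to WT were 2.71 and 2.01, the Myod1 ratios 1.98 (DTR over WT) and 0.494 (B6 over DTR), and the differentiation median of B6 over DTR -0.16.

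Without thinning, Pax7 shares were 65.9%, 63.8% and 72.2% and the Myod1 share of B6 62.5%. At 4000 UMIs the Pax7 share of DTR was 42.6%. From 2 UMIs, Pax7 shares were 2.27%, 12.1% and 4.17% and Myod1 shares 29.5% (WT) and 56.9% (DTR). Genes called were 406, 791 and 701 with a filter of 20 CPM, 474, 951 and 842 with 1 UMI in both libraries, 438, 958 and 786 from 1.5-fold, and 49, 95 and 82 from 3-fold.

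Among Xist-only cells 346 genes were called for DTR over WT. The Pax7 ratios to WT were 2.51 and 2.70, the Myod1 ratios of B6 0.760 (over WT) and 0.425 (over DTR), and the differentiation median of B6 over DTR -0.43. The thinned Myod1 share of WT was 68.2% and the Pax7 share of DTR 35.7%. Pax7 alone in WT was 18.2%, and in B6 both genes 60.0% and Myod1 alone 5.71%. Among Y-only cells 340 genes were called for DTR over WT. The Pax7 ratios were 1.02 (DTR over WT), 0.532 (B6 over WT) and 0.520 (B6 over DTR), and the Myod1 ratios 3.26, 2.16 and 0.661. Ccl7 was at 1.15, Tm4sf1 at 1.28, Arl4c at 1.06 and Kctd12 at 0.710. The heat shock median of DTR over WT was 0.54 and, for B6 over DTR, the differentiation median -0.46 and the immediate early median -0.086. The Pax7 share of B6 was 11.8%, and both genes and Myod1 alone in B6 29.4% each.

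Without members that had 100 UMIs of another type, the Myod1 ratios to WT were 2.41 and 1.35, Ccl2 was at 1.08 and Ccl7 at 1.59. Without its highest cell Ccl7 was at 1.63. Leaving out the highest 6% of Scrublet scores changed no direction.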

Other observations

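Gm42418, a gene that overlaps ribosomal RNA sequence, was chosen after its values were seen. It was at 9392 CPM in WT members, 9182 CPM in DTR members and 40110 CPM in B6 members, 4.27-fold (4.14 to 4.41) higher in B6 than in WT, and at 13334, 13339 and 46734 CPM in the other kept cells. The B6 library thus carried more of this RNA in satellite cells and in other cells.

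Across the cells of each library, the Spearman correlation of Pax7 with Myod1 UMIs was -0.47 over 44 WT cells, -0.27 over 58 DTR cells and -0.04 over 72 B6 cells. That of Myf5 with Myod1 was -0.27, 0.02 and -0.49. The rule asks for a sum over these genes, which by itself favours a negative sign, and the cells of a library share 1 capture while their depth ranged widely.

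Metallothionein Mt1 was higher in cells with both Pax7 and Myod1 (5133, 3404 and 7397 CPM in WT, DTR and B6) than in cells with Pax7 alone (1782, 2162 and 3438 CPM). Cells with Myod1 alone had 1739, 2298 and 6242 CPM, near the Pax7-only level in WT and DTR but not in B6. Of the 929 Mt1 UMIs of WT cells with both genes, 288 and 174 came from single cells. Hspa1a in B6 was at 507 CPM in cells with Pax7 alone, 1650 CPM in cells with both and 308 CPM in cells with Myod1 alone, and no state of WT or DTR passed 99.8 CPM among these 3.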
